A study of Homo sapiens with 9 samples.

Results

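The genes described here are 47 protein-coding genes of 4 families that move or make bicarbonate, protons and chloride. They were chosen by symbol: 15 carbonic anhydrases (CA), 10 bicarbonate transporters (SLC4), 13 sodium/proton exchangers (SLC9A, SLC9B and SLC9C) and 9 CLC chloride channels and exchangers (CLCN). They were drawn from a deposited count table of 46427 genes, 19672 of them protein-coding. Messenger RNA was sequenced from 9 libraries of the established human line H9, which is of embryonic stem cells (hESC). There were 3 libraries of untreated hESC, 3 of untreated neural progenitor cells (NPC) at day 11 of differentiation toward midbrain dopamine neurons, and 3 of day 11 NPC treated with bafilomycin A1 (BafA1). BafA1 blocks the proton pump of lysosomes and other acidic organelles (the V-ATPase), and the series uses it to ask about autophagy in neuronal differentiation.

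Per the labels' protocols, both NPC groups shared a differentiation with 200 nM LDN193189 and 10 µM SB431542, which block BMP and TGF-beta receptors, 2 µM purmorphamine, a Hedgehog agonist, and 3 µM CHIR99021, a GSK3 inhibitor. BafA1 was given at 10 nM for 6 h at a time. Several windows of days are listed, and none of the sources used here says which of them applies to the sequenced cells. All cells came from a single line. Libraries of a group are called biological replicates, without a statement that they were separate cultures, so p-values measure the spread between these samples, which may be technical. Libraries held 55706968 to 66544642 counts in the hESC group, 49479733 to 56054194 in the control NPC group and 43124679 to 69703791 with BafA1.

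Carbonic anhydrases interconvert carbon dioxide and water with bicarbonate and a proton, and their isoforms sit in the cytosol, in mitochondria or on the outer face of the plasma membrane. SLC4 proteins carry bicarbonate across membranes with sodium or in exchange for chloride, and SLC9 proteins trade sodium or potassium for protons at the cell surface or on endosomes and Golgi. CLC proteins are either chloride channels at the cell surface or chloride/proton exchangers of endosomes and lysosomes, where they work beside the V-ATPase that BafA1 blocks.

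Levels within a gene are given as CPM, counts scaled by library size after TMM correction, in the order of replicates 1, 2 and 3. Levels of different genes are compared only as FPKM, fragments scaled by transcript length and library total. Changes are log2 fold changes ± SE from edgeR's quasi-likelihood test over 20685 genes, and a gene was called at a Benjamini-Hochberg adjusted p under 0.05. Both NPC comparisons use the same control libraries, so their changes are not independent of each other.

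The labels were checked against marker genes. All 8 pluripotency markers reached 1 CPM in hESC, and their summed level was 5825 to 6151 CPM there, 837 to 916.8 in control NPC and 1135 to 1241 with BafA1. POU5F1 had no count in control NPC. Neural progenitor and floor plate markers summed to 449 to 502 CPM in hESC, to 5976 to 6731 in the control and 9048 to 11880 with BafA1, with PAX6 and HES5 at 0 in hESC. Mesenchyme markers also differed, at 177 to 192, 1629 to 2718 and 3085 to 3444 CPM, as did markers of epithelium and choroid plexus, at 1445 to 1640, 521 to 701 and 789 to 1085 CPM. Neuron markers summed to 244 to 267, 653 to 712 and 705 to 740 CPM in the same order. Glia markers were at 99.9 to 102.5, 55.2 to 91.9 and 65.2 to 82.9 CPM. Macrophage and osteoclast markers were at 52.7 to 60.4, 9.68 to 11.1 and 10.9 to 15.9 CPM. The part of such cells in the results below was not tested. Erythroid markers stayed at or under 1.09 CPM in sum, and kidney and gastric markers at or under 0.835. In bulk RNA, fewer cells of a type and less RNA per cell cannot be told apart.

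Of the 47 genes, 39 passed the filter on low counts. The 8 that did not were CA1, CA5A and CA6, with no count in any library, and SLC4A1, SLC4A10, SLC9A2, SLC9A4 and SLC9C2. CA1 and SLC4A1 (the anion exchanger of red cells) belong to erythroid cells, CA6 is secreted in saliva, CA5A is the liver's mitochondrial enzyme, and SLC9A2 and SLC9A4 serve gut and stomach epithelium. SLC4A1 had 41 counts in hESC and none in control NPC, at least 4.21-fold lower against a floor of 3 counts per library. SLC9A2 had 27 and none, at least 2.82-fold lower.

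In control NPC against hESC, 10 of the 39 genes were higher and 20 lower (76.9% called, where 64.5% of all genes tested were called, 33% higher and 31.6% lower). Their median log2 change was -0.42, and that of all genes was 0.03. Of the 12 tested carbonic anhydrases 9 were lower and 1 higher, while each of the other families had members in both directions. In BafA1 NPC against control NPC, 13 were higher and 7 lower (51.3% called, where 41.5% of all genes were called, 20.8% higher and 20.7% lower), with medians of 0.17 and 0.00. Here 6 of the 12 carbonic anhydrases were higher and 1 was lower. BafA1 NPC against hESC gave 12 higher and 15 lower (69.2%, where 70.4% of all genes were called, 35.5% higher and 34.8% lower).

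**Figure D1:**
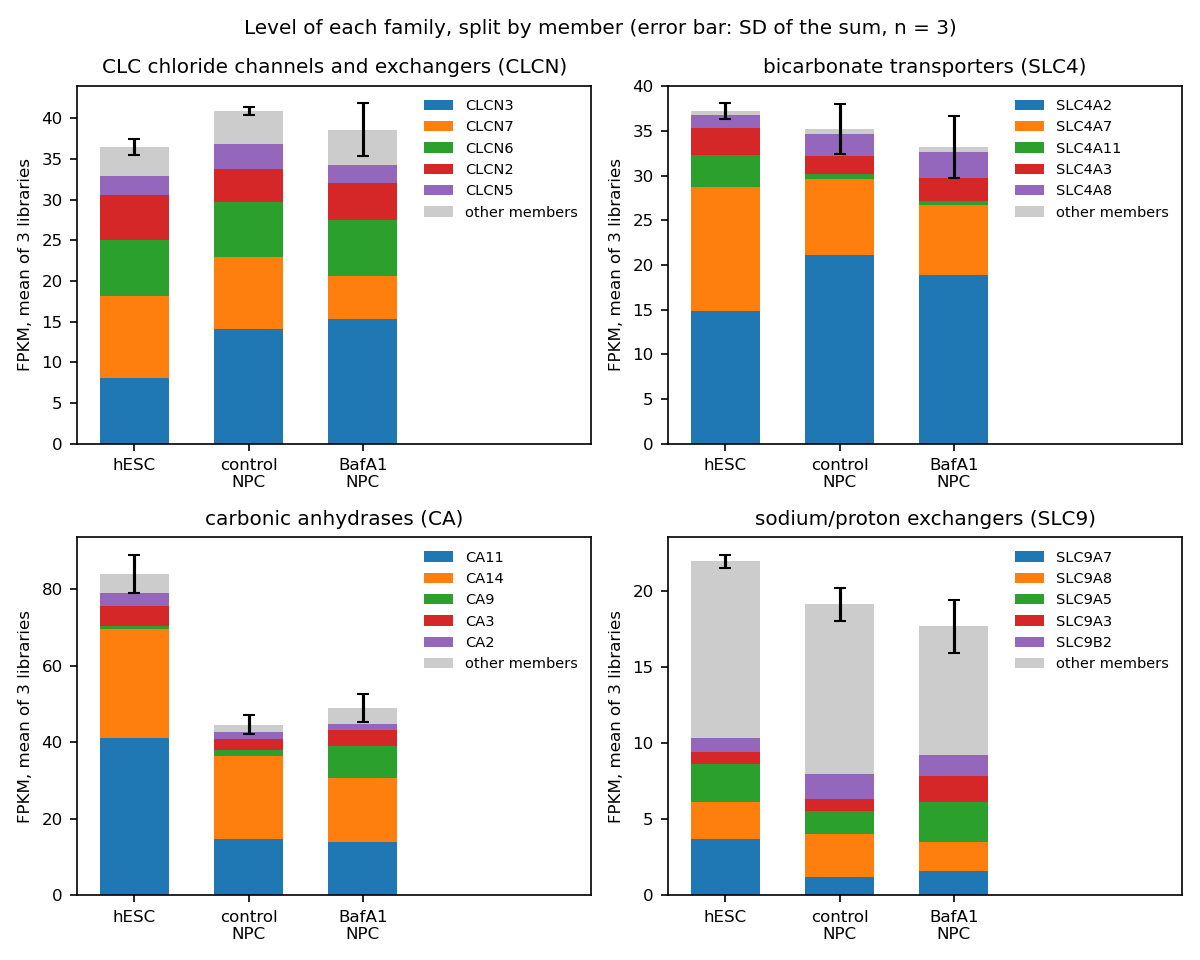
Summed FPKM of each family in the 3 groups, as stacked bars of the mean of 3 libraries split into 5 abundant members and the rest, with error bars for the SD of the sum (n = 3). The carbonic anhydrases stood at 84.1 FPKM in hESC and 44.6 in control NPC, and the band of CA9 was 1.47 FPKM wide in control NPC and 8.42 with BafA1.

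Per length, the summed level of the carbonic anhydrases was 84.1 ± 5.0 FPKM in hESC, 44.6 ± 2.36 in control NPC and 48.8 ± 3.67 with BafA1 (SD, n = 3). CA11 made up 48.9% of the sum in hESC, and CA14 48.4% in control NPC and 34.1% in BafA1 NPC. The sums of the other families moved less. CLCN genes summed to 36.4 ± 1.0, 40.9 ± 0.523 and 38.6 ± 3.26 FPKM, SLC4 genes to 37.2 ± 0.884, 35.2 ± 2.75 and 33.2 ± 3.51, and SLC9 genes to 22.0 ± 0.432, 19.1 ± 1.07 and 17.7 ± 1.77. Among single genes of control NPC, CA14 (21.6 ± 0.81 FPKM) and SLC4A2 (21.1 ± 2.1) stood highest and did not differ beyond their spread. CA11 (14.8 ± 1.37) and CLCN3 (14.1 ± 0.718) followed, likewise within their spread of each other. CLCN7 (8.79 ± 1.52) and SLC4A7 (8.47 ± 0.488) came next.

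CA9, a transmembrane anhydrase with its active site outside the cell and known as a gene induced by hypoxia-inducible factors, showed the largest rise of the tested carbonic anhydrases that had counts in every library. It lies on chromosome 9, 35673928 to 35681159 (GRCh38). Its level was 1.46, 1.31 and 1.89 CPM in hESC, 2.56, 2.79 and 2.27 in control NPC, and 11.7, 14.8 and 22.1 in BafA1 NPC. Every BafA1 library stood above every other library, although those 3 were also the most spread. The change against control NPC was 2.68 ± 0.24 (edgeR adjusted p = 1.73e-05), and it was called under each of the 21 alternative settings, where the change ran from 1.89 to 2.88. The smaller rise from hESC to control NPC was 0.71 ± 0.24 (edgeR adjusted p = 0.0223). That call was lost without control replicate 2 (adjusted p = 0.0694), hESC replicate 1 (0.0707) or hESC replicate 2 (0.082). Exons of CA9 share 643 bases with ARHGEF39 on the opposite strand, which was at 28.2 CPM in control NPC and 22.1 with BafA1. Whether the counting used strand is not stated.

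The promoter of CA9 is shown because of its rise in BafA1 NPC, and because its start holds the letters of a hypoxia response element core. RefSeq windows of 300 bases (250 before the start, GRCh38.p14) were at hand for 33 of the 47 genes, as 50 windows, and were searched on both strands for ACGTG and GCGTG, the 2 forms of that core, and for CACGTG, the E-box core, which contains ACGTG. In CA9 a single ACGTG lies on the reverse strand, its first printed base 18 bases before the start. The 120 bases before the start, chr9:35673808-35673927 on the plus strand, read 5′ to 3′ with the match in capitals.

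CA9: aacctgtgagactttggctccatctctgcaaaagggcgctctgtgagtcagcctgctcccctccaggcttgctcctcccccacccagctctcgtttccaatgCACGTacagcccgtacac

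ACGTG is a common string, found in 24.9% of all genes with a window and in 10 of the 33 genes here (30.3%). GCGTG was in 40.6% of all genes and in 16 of the 33 (48.5%). A match describes letters and is not evidence of binding. CA5B held ACGTG in its window as well, 17 bases after the start, and GCGTG at 6 places before it.

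Other anhydrases on the cell surface did not all move as CA9 did. CA4, tethered to the membrane by a lipid anchor, was at 0.553, 0.46 and 0.46 CPM in hESC, 0.693, 0.372 and 1.11 in control NPC and 3.11, 1.17 and 2.2 with BafA1. The lowest BafA1 library was just above the highest control library, and CA4 was called higher (1.58 ± 0.41, edgeR adjusted p = 0.00908), as under each alternative, at 0.98 to 2.45. CA12 was at 3.07, 2.58 and 3.36 CPM in hESC, 1.29, 0.726 and 0.897 in control NPC and 1.88, 1.24 and 1.44 with BafA1. It fell with differentiation (-1.63 ± 0.26, edgeR adjusted p = 0.00015), and its NPC groups overlapped (0.65 ± 0.26, adjusted p = 0.0641). Without control replicate 1 that difference passed (0.91, adjusted p = 0.0235).

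CA14, the most abundant surface anhydrase here, went down in both steps. It was at 65.9, 65.4 and 62.0 CPM in hESC, 46.3, 49.6 and 48.9 in control NPC and 40.9, 42.1 and 38.8 with BafA1, with no overlap between any 2 groups. The changes were -0.42 ± 0.07 (edgeR adjusted p = 0.000344) and -0.25 ± 0.07 (adjusted p = 0.0181). The latter was lost without BafA1 replicate 3 (-0.22, adjusted p = 0.0639) or control replicate 2 (-0.23, adjusted p = 0.0774), and in a fit of the NPC groups alone (adjusted p = 0.0547).

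Among cytosolic enzymes, CA2, a fast and widespread isoform, was at 6.19, 6.84 and 5.92 CPM in hESC, 3.5, 3.16 and 2.99 in control NPC and 2.69, 3.22 and 3.01 with BafA1. It fell with differentiation (-0.97 ± 0.15, edgeR adjusted p = 0.000138), and its NPC groups overlapped (-0.11 ± 0.16, adjusted p = 0.586). CA7 was at 2.44, 1.8 and 3.0 CPM in hESC and had no count in control NPC, at least 45-fold lower. In BafA1 NPC it had 9 counts, with none in BafA1 replicate 2. It is among the 13 called genes (edgeR adjusted p = 0.0314) although both groups were at or under the floor, and no fold is given. That call was lost without any 1 of the control libraries (adjusted p = 0.059 to 0.069), without BafA1 replicate 1 (0.0933) and without BafA1 replicate 3 (0.0579).

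CA3, a cytosolic isoform of low activity known from muscle, fell with differentiation from 10.5 ± 2.0 to 5.56 ± 1.07 CPM (-0.92 ± 0.19, edgeR adjusted p = 0.00123) and was higher at 8.9 ± 1.61 CPM in BafA1 NPC (0.68 ± 0.19, adjusted p = 0.0147). The second call was lost without BafA1 replicate 3 (0.53, adjusted p = 0.068) or control replicate 1 (0.56, adjusted p = 0.0575), and on FPKM (0.41, adjusted p = 0.0715, on the log2(FPKM + 1) scale). CA5B, the mitochondrial isoform, went from 9.41 ± 1.98 to 6.56 ± 0.842 CPM (-0.52 ± 0.16, adjusted p = 0.0146) and then to 12.4 ± 0.95 (0.92 ± 0.16, adjusted p = 0.00102). The fall was lost without control replicate 1 (-0.44, adjusted p = 0.0519) or hESC replicate 3 (-0.35, adjusted p = 0.0828), while the rise was called under each alternative. CA5B has a transcribed near-copy, CA5BP1, at 12.1, 8.02 and 6.47 CPM in the 3 groups, and reads could have been split between them. CA13 was not called in either comparison (0.46 ± 0.23 and -0.36 ± 0.23).

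The 3 anhydrase-related proteins, CA8, CA10 and CA11, lack catalytic activity, and all 3 fell with differentiation. CA8, which binds the IP3 receptor, was at 6.63, 5.83 and 6.77 CPM in hESC, 1.1, 1.55 and 2.76 in control NPC and 4.37, 3.36 and 3.91 with BafA1. The 3 groups did not overlap, and BafA1 NPC lay between the other two. The changes were -1.83 ± 0.28 (edgeR adjusted p = 0.000101) and 1.10 ± 0.28 (adjusted p = 0.00753).

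CA11 was at 94.8, 83.4 and 97.5 CPM in hESC, 34.1, 33.9 and 29.7 in control NPC and 31.6, 40.9 and 37.8 with BafA1. It fell by 1.5 ± 0.11 on the log2 scale (edgeR adjusted p = 1.92e-07), and its NPC groups overlapped (0.17 ± 0.11, adjusted p = 0.216). CA10 had 87 counts in hESC, 3 in control NPC and none in BafA1 NPC, a ratio of 27.4 between the first 2 groups (95% counting interval 9.06 to 135). All 3 control counts came from control replicate 3. Floors and such intervals cover counting error only.

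**Figure D2:**
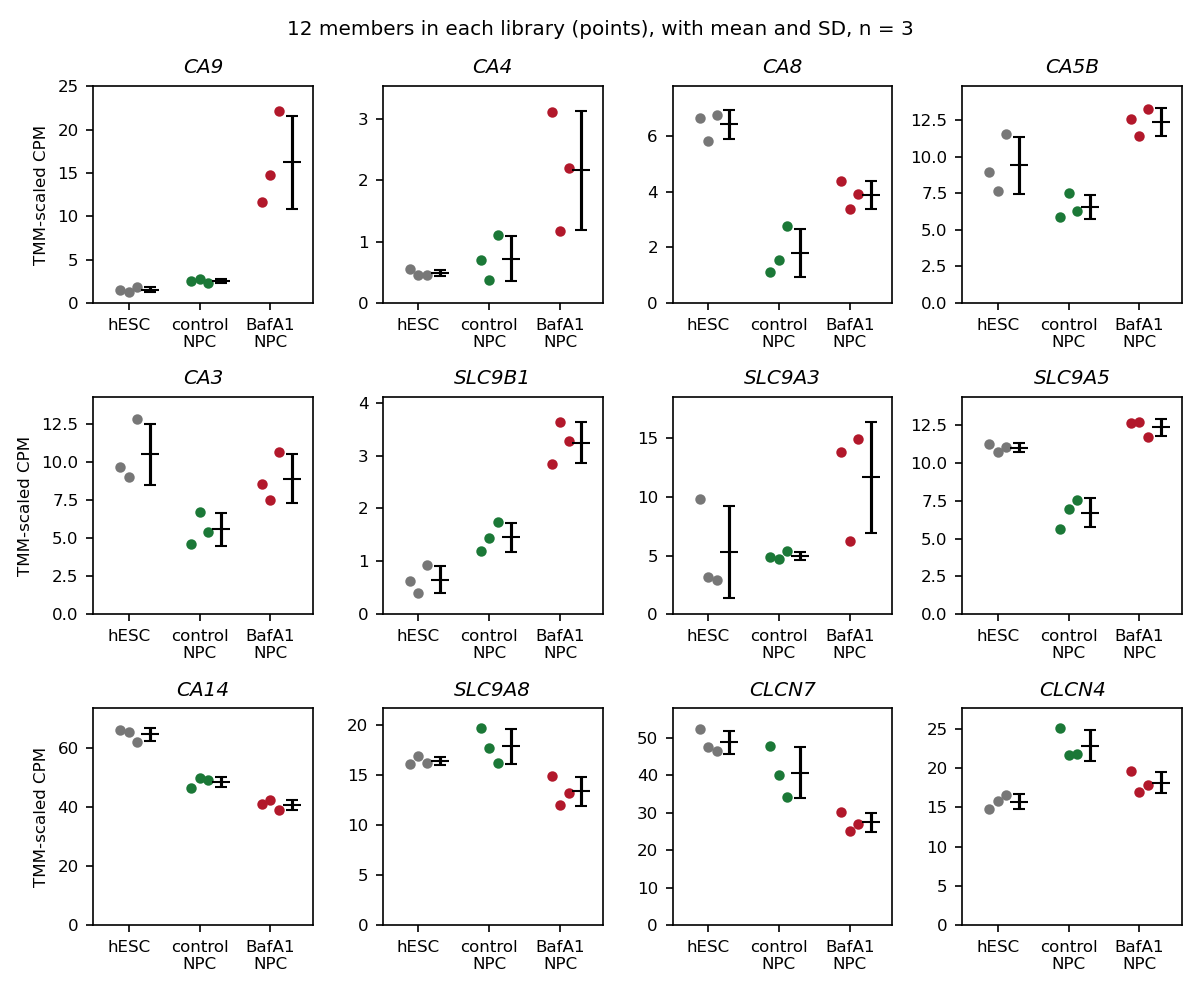
TMM-scaled CPM of 12 genes in each library (points) with mean and SD (n = 3) for hESC, control NPC and BafA1 NPC, each panel starting at 0. CA9, CA4, CA8, CA5B, CA3, SLC9B1, SLC9A3 and SLC9A5 stood higher in BafA1 NPC than in control NPC, and CA14, SLC9A8, CLCN7 and CLCN4 lower.

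Among the bicarbonate transporters, SLC4A2, a chloride/bicarbonate exchanger found in most cells, and SLC4A7, an electroneutral sodium/bicarbonate cotransporter, made up most of the level. SLC4A2 was at 72.5, 72.2 and 68.1 CPM in hESC, 105, 94.7 and 88.6 in control NPC and 100.3, 93.8 and 93.4 with BafA1. It rose with differentiation (0.44 ± 0.08, edgeR adjusted p = 0.000569). SLC4A7 was at 109.7, 131 and 131 CPM in hESC, 72.5, 75.0 and 68.3 in control NPC and 70.4, 62.5 and 88.8 with BafA1, and it fell (-0.78 ± 0.12, adjusted p = 0.000137). The exchanger thus stood higher and the cotransporter lower in both NPC groups than in hESC, without overlap.

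Between the NPC groups neither was called, at -0.01 ± 0.08 (edgeR adjusted p = 0.976) for SLC4A2 and 0.04 ± 0.12 (adjusted p = 0.824) for SLC4A7. With GC and length trends removed, SLC4A2 was called lower in BafA1 NPC (-0.21, adjusted p = 0.0461). SLC4A2 made up 39.8% of the family's FPKM in hESC and 60% in control NPC.

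SLC4A11, related to the bicarbonate transporters and mutated in corneal endothelial dystrophy, had the largest fall among the tested genes of this family. It was at 13.5, 12.1 and 13.0 CPM in hESC, 2.42, 2.97 and 1.9 in control NPC and 2.02, 1.61 and 2.56 with BafA1. The change from hESC to control NPC was -2.40 ± 0.20 (edgeR adjusted p = 6.7e-07), and the NPC groups overlapped (-0.23 ± 0.21, adjusted p = 0.403). SLC4A5, an electrogenic sodium/bicarbonate cotransporter, was at 0.921, 1.2 and 1.62 CPM in hESC, 2.48, 2.55 and 2.55 in control NPC and 3.51, 2.97 and 3.27 with BafA1. It rose with differentiation (1.02 ± 0.22, adjusted p = 0.0014), and the difference between NPC groups was not called although they did not overlap (0.36 ± 0.21, adjusted p = 0.187). SLC4A5 shares 1324 exon bases with MTHFD2 on the opposite strand, which was at 209, 116 and 303 CPM in the 3 groups. It shares more, 3809 exon bases, with AC006030.1 on its own strand, for which no level was found under that name.

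SLC4A3, a second chloride/bicarbonate exchanger known from heart and brain, fell from 14.6 ± 1.17 to 9.34 ± 0.612 CPM with differentiation and stood at 13.8 ± 1.18 in BafA1 NPC. Both changes were called (-0.65 ± 0.12, edgeR adjusted p = 0.000373, and 0.56 ± 0.12, adjusted p = 0.00245). SLC4A8, a sodium-driven chloride/bicarbonate exchanger of neurons, rose from 18.1 ± 0.429 to 30.1 ± 1.02 CPM (0.73 ± 0.08, adjusted p = 7.94e-06). It was called lower in BafA1 NPC, at 25.1 ± 1.35 CPM (-0.26 ± 0.08, adjusted p = 0.0238).

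That fall of SLC4A8 was lost in 10 of 21 alternatives. It turned to 0.13 on the log2(FPKM + 1) scale (limma adjusted p = 0.451) and was lost without BafA1 replicate 2 (adjusted p = 0.0749), BafA1 replicate 3 (0.0509), control replicate 1 (0.0725) or control replicate 2 (0.0614). SLC4A9 fell from 0.394 ± 0.135 to 0.0978 ± 0.0855 CPM (-1.95 ± 0.66, edgeR adjusted p = 0.0219), and the call did not hold when hESC replicate 2 (adjusted p = 0.0553) or hESC replicate 3 (0.0787) was left out. Without control replicate 1 or 3 the change was -1.40 or -2.44. SLC4A4, the electrogenic cotransporter of kidney and astrocytes, was not called in either comparison.

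Among the exchangers at the cell surface, SLC9A5, known from brain, fell from 11.0 ± 0.289 to 6.73 ± 0.964 CPM with differentiation (-0.71 ± 0.13, edgeR adjusted p = 0.000394). It stood at 12.4 ± 0.575 CPM in BafA1 NPC (0.88 ± 0.13, adjusted p = 0.000287), called under each alternative. SLC9A5 shares 571 exon bases with FHOD1 on the opposite strand, and their reads may not have been told apart. FHOD1 was at 52.82 CPM in hESC, 26.45 in control NPC and 23.43 with BafA1. SLC9A3, which takes up sodium at the surface of kidney and gut epithelium, was at 9.85, 3.13 and 2.88 CPM in hESC, 4.85, 4.73 and 5.37 in control NPC and 13.9, 6.26 and 14.9 with BafA1. Its replicates were far apart, with hESC replicate 1 well above the other hESC libraries and BafA1 replicate 2 well below the other BafA1 libraries, and hESC overlapped both NPC groups.

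SLC9A3 was called higher in BafA1 NPC than in control NPC (1.23 ± 0.43, edgeR adjusted p = 0.0374). The call was lost in 10 of 21 alternatives, among them leaving out BafA1 replicate 1 (1.11, adjusted p = 0.0985), BafA1 replicate 3 (1.02, adjusted p = 0.129) or any 1 control library (adjusted p = 0.0669 to 0.0994). Against hESC, control NPC differed by -0.09 ± 0.43 (adjusted p = 0.866), and by 0.73 (adjusted p = 0.0701) without hESC replicate 1. SLC9A3 shares exon bases with PP7080 on its own strand (2363 bases), which was at 8.84 CPM in control NPC and 3.3 with BafA1, and with SLC9A3-AS1 on the other (830 bases), which was at 9.54 and 16.8. SLC9A3 also shares 839 bases with EXOC3 on the opposite strand, which was at 35.5 CPM in control NPC and 37.6 with BafA1. Reads of such overlapping genes may not have been told apart.

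The exchangers of endosomes and Golgi moved in different directions. SLC9A8, a Golgi exchanger, was lower in BafA1 NPC, at 13.4 ± 1.44 CPM beside 17.9 ± 1.77 in control NPC (-0.42 ± 0.11, edgeR adjusted p = 0.0112).

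SLC9A7, of the trans-Golgi network, was at 40.4, 39.0 and 38.1 CPM in hESC, 14.4, 12.6 and 12.1 in control NPC and 20, 16.5 and 19.2 with BafA1. The 3 groups were apart, with the NPC groups both far below hESC. The fall was -1.59 ± 0.10 (edgeR adjusted p = 6.89e-08), and BafA1 NPC were higher than control NPC by 0.51 ± 0.10 (adjusted p = 0.00205), a call that did not hold on the log2(FPKM + 1) scale (0.23, adjusted p = 0.0925). SLC9A9, of late endosomes, was at 0.476, 0.313 and 0.58 CPM in hESC, 1.77, 1.27 and 1.07 in control NPC and 0.91, 0.999 and 0.807 with BafA1. It rose with differentiation (1.58 ± 0.31, adjusted p = 0.000723). The lower BafA1 values did not overlap the control values and were not called (-0.60 ± 0.30, adjusted p = 0.124), except on FPKM (-0.16 on the log2(FPKM + 1) scale, limma adjusted p = 0.0241).

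SLC9B1 and SLC9B2 encode sodium/proton antiporters of a separate branch, and their annotated spans overlap on chromosome 4. SLC9B1, known from testis, was at 0.63, 0.405 and 0.921 CPM in hESC, 1.19, 1.44 and 1.74 in control NPC and 2.84, 3.63 and 3.27 with BafA1. It went up in both steps without overlap (1.16 ± 0.29, edgeR adjusted p = 0.00399, and 1.15 ± 0.27, adjusted p = 0.00556). SLC9B1 shares 206 exon bases with CISD2 on the opposite strand. CISD2 was far more abundant, at 35.26 CPM in hESC, 40.15 in control NPC and 33.78 with BafA1. Whether its reads were kept apart from those of SLC9B1 is not known, as the use of strand in counting is not stated. SLC9B2 rose with differentiation, from 6.4 ± 0.182 to 10.6 ± 1.4 CPM (0.72 ± 0.13, adjusted p = 0.000318), and was at 10.5 ± 0.398 in BafA1 NPC (-0.01 ± 0.13, adjusted p = 0.965). SLC9B2 shares 397 exon bases with BDH2 on its own strand. BDH2 was at 45.6 CPM in hESC, 68.9 in control NPC and 65.4 with BafA1, and reads of these genes may not have been told apart.

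SLC9C1, a sperm exchanger, was at 1.5, 1.32 and 1.26 CPM in hESC, 0.135, 0.118 and 0.106 in control NPC and 0.164, 0.0975 and 0.0311 with BafA1. It thus had low levels in hESC and nearly none in NPC. The fall with differentiation was -3.49 ± 0.43 (edgeR adjusted p = 1.76e-05), and the NPC groups overlapped (-0.32 ± 0.53, adjusted p = 0.662). At these counts the difference between NPC groups rested on single libraries, at -0.99 without BafA1 replicate 1 and 0.16 without BafA1 replicate 3.

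**Figure D3:**
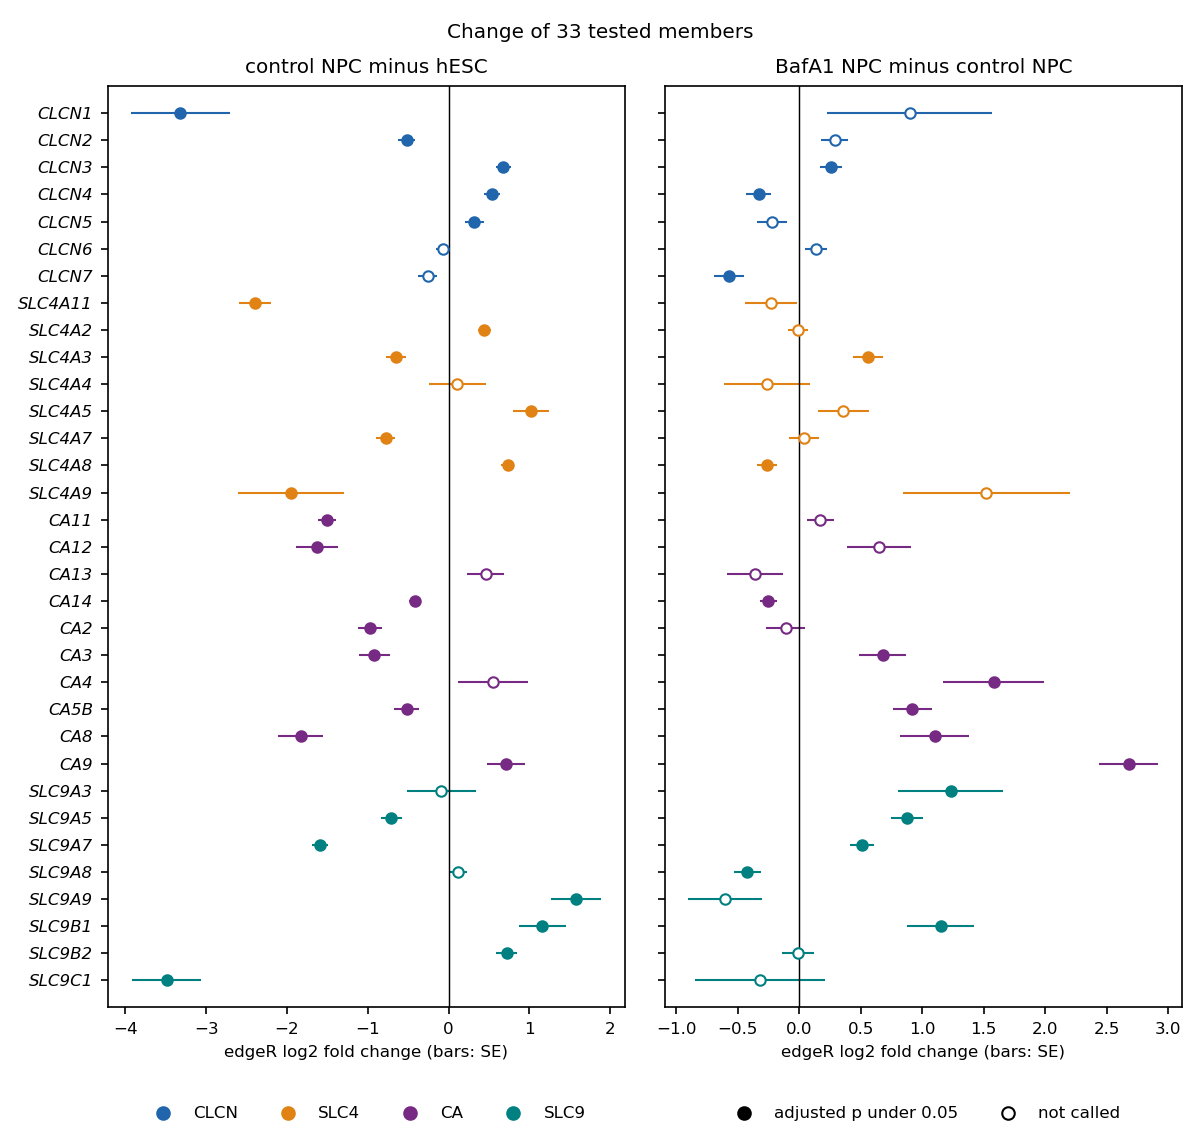
Log2 fold changes (points, bars for SE) of 33 tested genes for control NPC minus hESC (left) and BafA1 NPC minus control NPC (right). Points are coloured by family and filled where the edgeR adjusted p was under 0.05. CA7 and CA10 are left out for lack of counts. Tested genes that are not reported singly are left out as well, whatever their counts. Most carbonic anhydrases lie left of 0 in the left panel and CA9 lies farthest right in the other, at 2.68.

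The intracellular CLC exchangers, CLCN3 to CLCN7, were all well expressed, at 3.04 to 14.1 FPKM in control NPC. CLCN7, the chloride/proton exchanger of lysosomes and of the bone-resorbing border of osteoclasts, was at 52.3, 47.7 and 46.4 CPM in hESC, 47.8, 40.1 and 34.3 in control NPC and 30.2, 25.2 and 26.9 with BafA1. All BafA1 libraries were below all others. Against control NPC the change was -0.57 ± 0.12 (edgeR adjusted p = 0.0028), called under each alternative at -0.79 to -0.44. Control NPC and hESC overlapped (-0.26 ± 0.12, adjusted p = 0.0714), and that call turned on the setting. The fall was called without control replicate 1 (-0.39, edgeR adjusted p = 0.00994), by DESeq2 (-0.31, adjusted p = 0.0312), with RLE size factors (-0.31, adjusted p = 0.039) and with the replicate block (-0.27, adjusted p = 0.0236), while with GC and length trends removed no difference was left in the estimate (0.00, adjusted p = 0.989).

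The partner of CLCN7 at the lysosome is the protein encoded by OSTM1. CLCN3, an exchanger of endosomes and synaptic vesicles, moved the other way, at 62.5, 57.9 and 62.9 CPM in hESC, 92.7, 96.5 and 104 in control NPC and 115, 107 and 129 with BafA1. Its rise with differentiation was 0.68 ± 0.09 (edgeR adjusted p = 3.28e-05), and BafA1 NPC were higher by 0.26 ± 0.09 (adjusted p = 0.0357). The second call was lost in 12 of 21 alternatives, among them with libraries scaled by size alone (0.13, adjusted p = 0.265), without BafA1 replicate 3 (0.18, adjusted p = 0.144), without control replicate 1 or 2 (adjusted p = 0.113 for each) and without any 1 hESC library (adjusted p = 0.052 to 0.0576).

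CLCN4, an endosomal exchanger, was at 14.8, 15.8 and 16.6 CPM in hESC, 25.1, 21.7 and 21.8 in control NPC and 19.6, 17.0 and 17.9 with BafA1. It rose with differentiation (0.54 ± 0.10, edgeR adjusted p = 0.000539), and BafA1 NPC lay between the other groups (-0.33 ± 0.10, adjusted p = 0.0205). The latter was lost without control replicate 1 (-0.26, adjusted p = 0.0815), BafA1 replicate 2 (-0.29, adjusted p = 0.0686) or BafA1 replicate 3 (-0.32, adjusted p = 0.0579), and with GC and length trends removed (-0.23, adjusted p = 0.0503).

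CLCN5, the endosomal exchanger mutated in Dent disease, was at 24.8, 28.0 and 26.7 CPM in hESC, 34.1, 31.8 and 33.3 in control NPC and 31.5, 22.9 and 30.6 with BafA1. Its rise with differentiation (0.32 ± 0.12, edgeR adjusted p = 0.0279) was lost in 8 of 21 alternatives, among them leaving out control replicate 1 (0.0678) or 3 (0.0555) or hESC replicate 1 (0.107) or 3 (0.0658). BafA1 NPC were not called against control NPC (-0.22 ± 0.12, adjusted p = 0.148), except with libraries scaled by size alone (-0.34, adjusted p = 0.0437). CLCN6, of late endosomes, was at 44.2, 44.6 and 45.5 CPM in hESC, 39.6, 41.9 and 46.3 in control NPC and 51.3, 43.8 and 46.0 with BafA1. Its groups overlapped, and it was called in neither comparison (-0.07 ± 0.09, adjusted p = 0.501, and 0.14 ± 0.09, adjusted p = 0.215).

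The promoters of these exchangers are shown for matches to a motif. The families were chosen by symbol, while the promoters printed here were picked from those that hold a match. The E-box core CACGTG, the letters read by MYC, by TFEB and by other factors of their class, was in the windows of 4 of the 7 CLCN genes that had one (57.1%), in 6 of the 33 genes of the 4 families (18.2%) and in 8.77% of all genes with a window. The 4 were CLCN4, CLCN5, CLCN6 and CLCN7, which stood at unlike changes in BafA1 NPC. The others were SLC9A5 and SLC4A2. The windows of SLC4A2 that hold a match overlap and share the same 3 matches, while the window at its annotated start holds none. The match of CLCN5 lies in the window of a later start (chrX:50067338-50067637). The window at the annotated start of CLCN5 (chrX:49922346-49922645) holds no E-box core. The 120 bases before the RefSeq start of CLCN4 (chrX:10156855-10156974, plus strand), CLCN6 (chr1:11806071-11806190, plus strand) and CLCN7 (chr16:1475029-1475148, minus strand) read as follows, 5′ to 3′ in the sense of the gene, with E-box cores in capitals.

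CLCN4: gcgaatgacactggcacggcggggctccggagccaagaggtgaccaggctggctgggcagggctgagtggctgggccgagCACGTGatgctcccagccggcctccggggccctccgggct

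CLCN6: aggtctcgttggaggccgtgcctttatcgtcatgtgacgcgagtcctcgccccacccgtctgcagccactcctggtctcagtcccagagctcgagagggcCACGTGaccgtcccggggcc

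CLCN7: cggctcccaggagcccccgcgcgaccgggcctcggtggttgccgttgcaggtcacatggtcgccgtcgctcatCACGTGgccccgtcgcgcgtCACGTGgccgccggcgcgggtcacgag

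The match of CLCN4 began 40 bases before the start, those of CLCN7 began 47 and 27 bases before it, and CLCN6 had one at 20 bases before and another at 3 bases after the start.

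**Figure D4:**
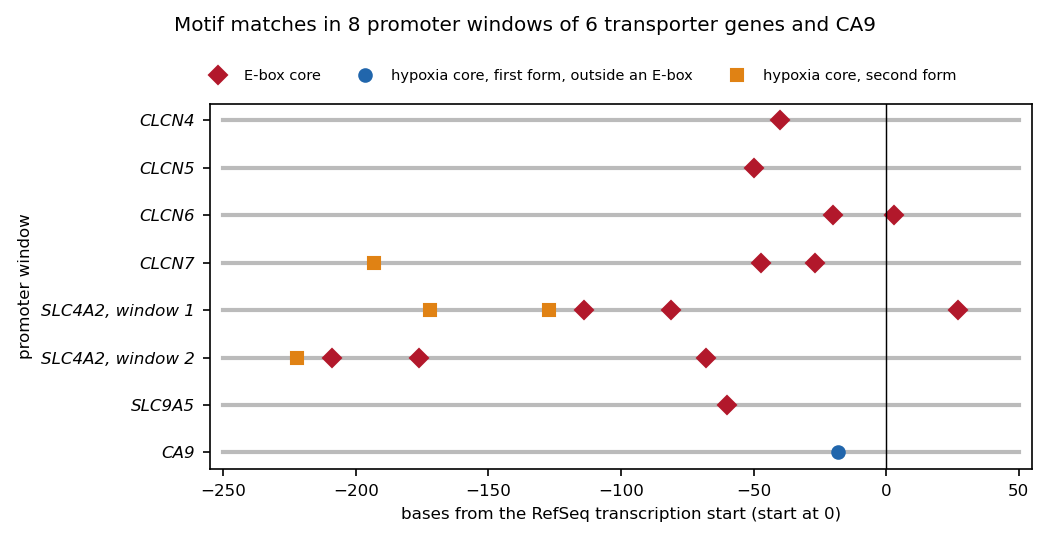
Positions of motif matches along 8 RefSeq promoter windows of CLCN4, CLCN5, CLCN6, CLCN7, SLC4A2, SLC9A5 and CA9, in bases from the transcription start at 0, for the E-box core CACGTG (diamonds) and the hypoxia cores ACGTG (circles) and GCGTG (squares). The E-box cores of the CLCN genes lie within 50 bases before the start of the window drawn or just after it. For CLCN5 that start is not the annotated start of the gene. The single match of CA9 lies 18 bases before its start.

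Of the chloride channels at the cell surface, CLCN2, found in many cell types, stood at 4.0 FPKM in control NPC, above CLCN4 and CLCN5, and CLCN1 at 0.0336. CLCN2 fell from 19.6 ± 1.49 to 13.7 ± 0.415 CPM with differentiation (-0.52 ± 0.11, edgeR adjusted p = 0.00135) and was at 16.8 ± 2.05 CPM in BafA1 NPC (0.29 ± 0.11, adjusted p = 0.0531). CLCN2 shares 2103 exon bases with FAM131A on the opposite strand, which was at 14.4 CPM in hESC, 11.8 in control NPC and 15.1 with BafA1. CLCN1, the channel of skeletal muscle, was at 1.47, 1.14 and 1.23 CPM in hESC, 0.212, 0 and 0.176 in control NPC and 0.182, 0.292 and 0.248 with BafA1. It fell with differentiation (-3.32 ± 0.61, adjusted p = 0.000451), at -2.71 without control replicate 2, the library with no count. The NPC groups overlapped.

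Without overlap between the 3 libraries of each group, 32 of the 39 genes separated control NPC from hESC (72.8% of all genes did) and 24 separated BafA1 from control NPC (49.2% of all genes). Between BafA1 NPC and hESC 28 did (74.6% of all genes). Changes that were called and at least 2-fold in the estimate numbered 14 (34% of all genes tested) and 7 (10.9%). In BafA1 NPC against control NPC all 7 were higher, CA4, CA7, CA8, CA9, SLC9A3 and SLC9B1 among them. The estimate of CA7 rests on counts at or under the floor, and the call of SLC9A3 was lost under several alternatives. The 10.9% of all genes covers both directions, and the share that was higher among them was not computed.

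Genes that act beside these families were taken from lists, whose shares of called genes are to be read against the 64.5% of all genes called with differentiation and the 41.5% called in BafA1 against control NPC. Calls of these list genes were not followed across the alternative settings, so those close to the threshold are uncertain. Of 7 lactate and proton cotransporters and their partners, 3 were higher and 2 lower in BafA1 NPC than in control NPC (71.4% called). SLC16A3, which exports lactate with a proton, rose from 155 ± 12.8 to 472 ± 40.8 CPM (1.61 ± 0.14, edgeR adjusted p = 1.59e-05), and BSG, the chaperone of these carriers, from 556 ± 45.3 to 1101 ± 199 CPM (0.99 ± 0.13, adjusted p = 0.000123). With differentiation 1 was higher and 3 were lower (57.1% called), and SLC16A1 fell from 534 ± 18.0 to 246 ± 7.74 CPM (-1.12 ± 0.08, adjusted p = 2.57e-07).

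Of 8 tested SLC26 anion exchangers, 4 were higher and 2 lower in control NPC than in hESC (75% called), and 1 was higher and 2 lower in BafA1 NPC than in control NPC (37.5%, where 41.5% of all genes were called). SLC26A2, a sulfate carrier, fell from 42.4 ± 2.27 to 21.7 ± 2.62 CPM in the latter (-0.97 ± 0.10, edgeR adjusted p = 3.92e-05). Of 8 cation chloride cotransporters the counts were 5 and 1 (75%), then 1 and 1 (25%). SLC12A4, a potassium/chloride cotransporter, rose from 47.5 ± 4.81 to 75.1 ± 7.7 CPM in BafA1 NPC (0.66 ± 0.10, adjusted p = 0.000451), and SLC12A5, the neuronal one, fell from 1.59 ± 0.0672 to 1.04 ± 0.0987 (-0.61 ± 0.23, adjusted p = 0.049).

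Of 20 other chloride channel genes, 8 were higher and 9 lower with differentiation (85% called, beside 64.5% of all genes), and 5 higher and 2 lower in BafA1 NPC than in control NPC (35%, beside 41.5%). ANO1, a calcium-activated channel, fell from 12.4 ± 0.776 to 0.104 ± 0.0975 CPM with differentiation (-6.83 ± 0.45, edgeR adjusted p = 7.49e-08). TTYH2 rose from 13.4 ± 3.35 to 38.4 ± 1.4 CPM in BafA1 NPC (1.51 ± 0.15, adjusted p = 3.07e-05) and TTYH1 from 43.9 ± 1.89 to 90.3 ± 19.9 (1.04 ± 0.14, adjusted p = 0.000151).

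Of 16 partners and regulators, 4 were higher and 7 lower with differentiation (68.8% called, beside 64.5% of all genes), and 7 higher and 3 lower in BafA1 NPC than in control NPC (62.5%, beside 41.5%). CHP2 and TESC encode partners of sodium/proton exchangers. CHP2 was at 1.26 ± 0.112 CPM in hESC and had no count in either NPC group, and TESC fell from 5.16 ± 0.431 to 0.496 ± 0.199 CPM with differentiation (-3.37 ± 0.43, edgeR adjusted p = 2.51e-05). TESC was called higher in BafA1 NPC than in control NPC, at 1.17 ± 0.723 CPM (1.21 ± 0.44, edgeR adjusted p = 0.0432). WNK4, a kinase that controls chloride cotransporters, fell from 8.57 ± 2.7 to 4.38 ± 0.366 CPM in BafA1 NPC (-0.97 ± 0.22, adjusted p = 0.0043).

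Of 7 tested proton channels, pumps and related genes, 2 were higher and 3 lower with differentiation (71.4% called, beside 64.5% of all genes), and 2 higher and 2 lower in BafA1 NPC than in control NPC (57.1%, beside 41.5%). HVCN1, the voltage-gated proton channel, fell from 7.59 ± 0.427 to 3.29 ± 0.312 CPM with differentiation (-1.20 ± 0.15, edgeR adjusted p = 1.88e-05), and TMEM165, a Golgi protein needed for glycosylation, from 51.8 ± 5.44 to 25.1 ± 0.678 in BafA1 NPC (-1.04 ± 0.09, adjusted p = 2e-05). Of 6 tested acid sensors, 2 were higher and 2 lower with differentiation (66.7%, near the share of all genes), and 3 higher and 0 lower in BafA1 NPC (50%, beside 41.5%). ASIC1, an acid-gated cation channel of neurons, went up in both steps, from 7.89 ± 0.102 to 26.3 ± 7.56 and to 47.7 ± 8.95 CPM (1.73 ± 0.19, adjusted p = 5.82e-06, and 0.86 ± 0.18, adjusted p = 0.00253).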

How the data were processed

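The authors deposited 1 table of raw, whole-number counts of reads and, for each of the 3 groups, a table of FPKM values, per the file headers. The kit was for stranded mRNA, per the labels' protocols. The submitters' processing notes name Trimmomatic, a read trimmer, and the build GRCh38. No source used here names the aligner, the counter or the use of strand. Columns were matched to samples by name, with control columns matched to untreated NPC as the group that remained.

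Counts were tested with edgeR 4.0.16 (limma 3.58.1, DESeq2 1.42.0, R 4.3.3): filterByExpr, TMM, and a quasi-likelihood fit of all 9 libraries with 1 term per group, two-sided, with Benjamini-Hochberg adjustment over 20685 genes. Scripts were tested on simulated data, where false calls made up somewhat more than the nominal share of all calls, so calls close to the threshold are less certain than their adjusted p states. The bar for passing that test was restated once, for genes of at least 1 CPM, after low-count genes had failed it. FPKM as deposited by the authors served for levels and for limma on log2(FPKM + 1) and log2(FPKM + 0.1). Changes are relative to the trimmed mean of all genes. Of 46427 genes, 15054 had no count in any library.

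The genes, lists and tests were chosen with earlier results of these data known. Values per library are given for genes called in either NPC comparison with at least a 2-fold change, no overlap and a higher group of at least 1 CPM. They are also given for CA2, CA9, CA12, CA14, SLC4A2, SLC4A7, SLC9A7, SLC9A9 and CLCN3 to CLCN7. Some genes of the families are counted and not reported singly here. From each list, up to 2 called genes per comparison with the largest change and a higher group of at least 1 CPM could be named. Promoters are RefSeq windows of GRCh38.p14, matched by symbol, and protein sequences were not analysed here. Alternatives were other scalings, filters, tools and units, GC and length correction, the replicate block, and leaving out each library.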

Additional observations from a re-analysis of the deposited data

How the results depend on the processing

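Results were recomputed under 21 alternatives. Of 1801 single-gene values, 1641 kept direction and side of the threshold, 111 lost the call, 14 gained it and 35 changed sign. In BafA1 against control NPC, 8 of the 47 genes were higher, in place of 13, on log2(FPKM + 1), on log2(FPKM + 0.1) and on log2(FPKM + 1) over all genes with a value, where 2520 of all genes were higher in place of 4309. Without BafA1 replicate 3, 4 were lower in place of 7. Leaving out 1 library at a time gave 9 to 13 higher and 4 to 7 lower in BafA1 against control NPC, 8 to 11 and 19 to 23 in control NPC against hESC, and 9 to 13 and 13 to 16 in BafA1 NPC against hESC. Over all genes these ranges were 3241 to 4452 and 3278 to 4295, 6224 to 6951 and 5920 to 7054, and 6816 to 7466 and 6694 to 7473. Scaling by library size alone shifted the median of all genes to -0.12 in BafA1 against control NPC (35.3% of calls higher, against 50.2%) and to 0.14 in control NPC against hESC (57.4% against 51.1%). On log2(FPKM + 1), 2941 genes were higher and 5729 lower in BafA1 against control NPC. The cause of these shifts was not tested.

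Same-numbered libraries of different groups deviated together with correlations of -0.0473 to 0.0758, so little shared deviation was seen. Such values cannot tell whether same-numbered samples were set up together, since pairing with a small effect would look alike. With the replicate block, 15 genes were higher and 7 lower in BafA1 against control NPC, 10 and 21 in control NPC against hESC, and 12 and 15 in BafA1 NPC against hESC. CA12 was then called higher in BafA1 NPC than in control NPC (edgeR adjusted p = 0.0435).

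All sign changes but those of SLC4A8 were in differences that had not been called, and none of the changed values was called. In control NPC against hESC, removing GC and length trends gave 0.00 for CLCN7 and 0.13 for SLC9A3 (with the replicate block as well, 0.29 for SLC9A3), and library size alone gave 0.03 for CLCN6 and 0.02 for SLC9A3. CA4 was at -0.38 on log2(FPKM + 0.1) and -0.10 on both log2(FPKM + 1) fits, and SLC9A3 at 0.17 and 0.04. SLC9A3 was at 0.10 with the replicate block and, leaving out 1 library at a time, from -0.39 to 0.73 (the latter without hESC replicate 1). In BafA1 against control NPC, log2(FPKM + 0.1) and both log2(FPKM + 1) fits gave -0.09 and -0.08 for CA11, -0.01 for CLCN6, -0.13 and -0.12 for SLC4A7, and 0.16 and 0.13 for SLC4A8. CA11 was at -0.04 with GC and length trends removed, with or without the block. SLC4A7 was at -0.09 with library size alone and from -0.11 (without BafA1 replicate 3) to 0.15 with 1 library left out, and SLC9C1 from -0.99 to 0.16 (without BafA1 replicate 3). SLC4A2 was at 0.01 by DESeq2, with RLE size factors and without BafA1 replicate 2 or 3, and from -0.06 to 0.06 (without control replicate 1) over the libraries left out. The added constant shrinks changes of low genes on log2(FPKM + 1), by its construction, to -1.48 for SLC4A11, -0.38 for CLCN1 and -0.35 for SLC9C1 in control NPC against hESC. Low counts limit the precision of CLCN1 and SLC9C1.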
